A study of Saccharomyces cerevisiae with 4 samples.

Results

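The genes described are 53 genes of protein entry into the endoplasmic reticulum (ER) and of transport between the ER and the Golgi in the budding yeast Saccharomyces cerevisiae. They were chosen by name, as the translocon, the signal recognition particle with its receptor, signal peptidase, the COPII and COPI vesicle coats with their cargo receptors and Arf GTPases, and the protein O-mannosyltransferases. The choice of these genes, and of the lists set beside them, was made with earlier results of these data known. The intervals below do not cover that choice. All 53 were found among the 6002 protein-coding genes of the R64 annotation. Chromatin immunoprecipitation with sequencing located Arp4, an actin-related protein of the NuA4, SWR1 and INO80 chromatin complexes, in wild-type cells in mid-log phase in YPD medium at 30 °C. Of 4 samples, 2 carried ARP4-3FLAG and 2 carried no tag, and an antibody against Flag was used on all of them. The series title places this in a study of Swc4, a subunit of NuA4 and SWR1. The data used were 1 peak list of the tagged wild-type cells, with no column for any sample; replicate error could not be estimated, and no test between samples was possible.

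A secreted or membrane protein is recognised by its signal sequence. The signal recognition particle (SRP) binds the sequence as it leaves the ribosome and hands it to the SRP receptor at the ER. The Sec61 channel then passes the chain through the membrane, and the Sec62/Sec63 complex serves proteins that arrive after their synthesis is complete. Signal peptidase cuts off the signal sequence, and the Pmt enzymes attach mannose to serine and threonine residues. COPII vesicles carry cargo from the ER to the Golgi, and COPI vesicles, whose coat is recruited by Arf GTPases, carry proteins back.

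The list held 1430 peaks on 16 chromosomes. Their fold enrichment, the authors' linear ratio at the summit over the peak caller's background, had a median of 1.66 and a range of 1.02 to 6.32. Their width had a median of 359 bp and a range of 220 to 3036 bp. The read depth behind these values is unknown. A promoter summit is a peak's highest point where it falls between 500 bp before the annotated start and 100 bp past it. A body summit lies inside the gene, over 100 bp from both ends. The intervals given on shares are Wilson 95% intervals and cover counting error over genes only.

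Of the summits counted at these genes, most lay in the promoter window and few in gene bodies as defined above. A promoter summit was present at 16 of 53 genes (30.2%, interval 19.5 to 43.5), beside 14.0% of all protein-coding genes. A body summit was present in 3 of 53 (5.66%, interval 1.94 to 15.4), beside 10.1% of all genes, which the interval held. Either kind was present at 18 of 53 (34.0%, interval 22.7 to 47.4), beside 21.9% of all genes, and 1 gene, SRP54, had both. The other 35 genes had neither. The promoter share was over the background in 6 of the 7 groups and below it in the SRP group, but groups of 4 to 9 genes give wide intervals. The interval reached down to or below the background in all but the O-mannosyltransferases, with 3 of 6, where it began at 18.8%. With each summit counted only for the gene with the nearest start, that group had 2 of 6 (no interval made). No test was made of these counts. A summit in the windows of 2 genes counts for both. As an alternative, genes whose summit is shared in this way or lies in another gene's body were left out. Then 6 of 43 had a promoter summit (no interval made), beside 7.03% of all genes under the same rule. With a window from 250 bp upstream to the start 1 of 53 did, beside 2.23%. The body count was 0 with either stricter peak threshold, beside 3.43% and 6.03% of all genes. It was 12 (22.6%) with the whole gene counted as body, beside 15.2%, so the body share then lay over that of all genes.

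**Figure D1:**
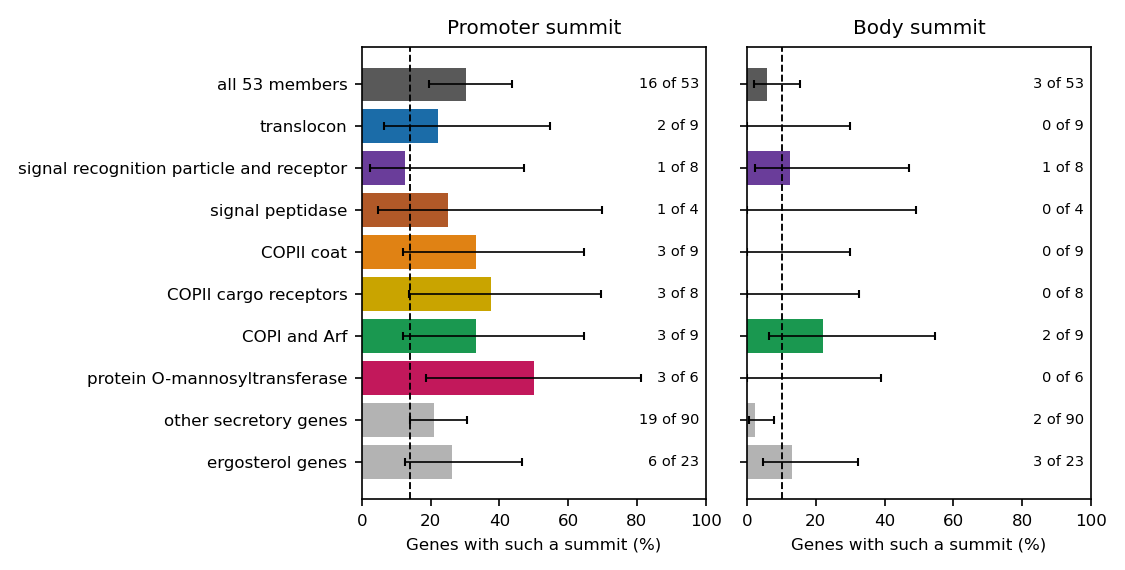
Share of genes (%) with a promoter summit (left) and a body summit (right) in all 53 genes, in each of the 7 groups, in the other secretory lists together and in the ergosterol genes; error lines are Wilson 95% intervals and dashed lines are the shares of all 6002 protein-coding genes. The O-mannosyltransferases had the highest promoter share of the 7 groups, 3 of 6, and 5 of the 7 groups had no body summit.

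In the translocon, 2 of 9 genes had a promoter summit, and both encode parts of the Sec62/Sec63 complex. Not all genes of that complex had one, as SEC72 below did not. SEC63, whose protein brings the chaperone Kar2 to the channel, had the highest fold of all 53 genes. Its peak (chromosome XV, 806868 to 807164) had a fold of 3.83, a −log10 q of 122 and a width of 297 bp, and its summit was 37 bp past the start. It ranked 29 among the 1430 peaks by fold. Its promoter region is shared with the divergent gene OSW1, and the summit lay 285 bp upstream of the OSW1 start. SEC62, which encodes the partner of Sec63, had a peak of quite another shape.

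The SEC62 peak (chromosome XVI, 370093 to 372890) was 2798 bp wide, which ranked 3 among the 1430 peaks, and no other promoter peak in the list was wider. Its fold was 2.35 and its summit lay 21 bp inside SEC62. The peak covered 69.2% of SEC62 and 98.4% of the divergent gene NOG1, which encodes a GTPase of large ribosomal subunit assembly. The 1 summit therefore stands for a stretch that runs mostly over the neighbour. The deposited list gives only 1 summit for this stretch.

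The other translocon genes, those of the channel among them, had no promoter summit. SEC61, the channel subunit, had its nearest summit 786 bp upstream of its start, in a peak with a fold of 1.90. That peak reached into the 500 bp window with its edge, and its summit lay in the promoter window of another gene, CSR1, 318 bp upstream. At SEC72, a gene of a further subunit of the Sec62/Sec63 complex, a peak edge also reached into the window. Its summit lay 792 bp upstream and its fold was 1.29. SEC66, SBH1, SBH2, SSS1 and SSH1 had none either. At SSH1, the paralog of SEC61, the nearest summit was 16757 bp away. SBH1 and SBH2 encode the beta subunits of the Sec61 and Ssh1 channels, so neither member of either paralog pair carried a promoter summit. Only 14.0% of all protein-coding genes had one, so its absence at these few genes does not set them apart.

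Of the 8 genes of the SRP and its receptor, SRP54 was the 1 with a summit. It encodes the GTPase that binds the signal sequence. Its promoter peak (chromosome XVI, 712615 to 713466) had a fold of 2.70, the second highest of the 53 genes, and a width of 852 bp. The summit lay 304 bp upstream of SRP54, which is 57 bp inside the divergent gene YPR089W, and the peak covered 25.5% of SRP54. A second, weak peak (711483 to 711719) had its summit 175 bp before the end of SRP54, a fold of 1.32 and 3.78 as its −log10 q. The promoter peak was thus the stronger of the 2.

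The other SRP subunit genes, SRP14, SRP21, SRP68, SRP72 and SEC65, had no summit at the promoter or in the body. Nor did YDR292C and YKL154W, which encode the alpha and beta subunits of the receptor. The nearest summit to YDR292C was 18392 bp away, and to SEC65 1499 bp. The RNA of the particle is transcribed from SCR1 by RNA polymerase III. SCR1, which is not among the 53 genes, was covered by a peak (chromosome V, 441991 to 442509) with a fold of 1.89 and its summit 275 bp into a gene of 522 bp. Within the particle the RNA gene and SRP54 carried Arp4 peaks and 5 protein genes did not. Beside this, 21.9% of all protein-coding genes had a promoter or body summit, and no share over RNA genes was made. With each summit counted only for the gene with the nearest start, the promoter count of the SRP group was 0.

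Signal peptidase had a promoter summit at 1 of 4 genes, SPC3, which encodes a subunit needed for its activity. The peak (chromosome XII, 266763 to 267211) had a fold of 1.82. Its summit lay 278 bp upstream of SPC3 and 27 bp inside the divergent gene SND2, which acts in an SRP-independent route to the ER. SEC11, the catalytic subunit gene, and SPC1 and SPC2 had none. At SPC2 the nearest summit was 735 bp upstream, with a fold of 2.19.

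Among the 9 genes of the COPII coat, SEC23, SEC31 and SFB2 had promoter summits. SEC31, of the outer coat layer, had the strongest peak (chromosome IV, 106744 to 107276), 533 bp wide, with a fold of 2.38 and 63.2 as its −log10 q. Its summit lay 101 bp upstream of the start. It was the 1 promoter summit of the 16 in the 200 bp directly upstream of a member, a zone where 75 of the 839 genes with a promoter summit have one.

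SEC23 encodes the inner coat subunit that stimulates GTP hydrolysis by Sar1. Its peak (chromosome XVI, 899508 to 899757) had a fold of 1.82 with the summit 20 bp inside the gene. A second peak had its summit 538 bp upstream, just outside the window, with a fold of 1.92. That summit lay 11 bp inside another gene, SMX3. SFB2, a paralog of the cargo adaptor gene SEC24, had a peak (chromosome XIV, 537664 to 537982) with a fold of 1.64 and the summit 59 bp inside the gene. That summit also lay 321 bp upstream of ALG11, a mannosyltransferase gene of N-glycan assembly.

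SEC24 itself was the gene farthest from any summit, 25210 bp, and the third paralog, SFB3, was 14452 bp from one. The remaining coat genes without a summit were SAR1, the GTPase that starts coat assembly, SEC12, its exchange factor, SEC13 and SEC16. SEC16, at 6588 bp the longest of the 53 genes, overlapped no peak.

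Cargo receptor genes had promoter summits in 3 of 8 cases, with a median fold of 1.56. ERV46, whose protein acts with Erv41, had the highest fold of the 3 (chromosome I, 60863 to 61706), with a fold of 2.13, a width of 844 bp and its summit 57 bp inside the gene. The summit lay 321 bp upstream of the divergent gene PTA1, which encodes a subunit of the mRNA cleavage and polyadenylation factor. ERP2, a p24 family gene, had a peak of 222 bp (chromosome I, 138211 to 138432) with a fold of 1.56. Its summit at 93 bp inside the gene was the closest to the inner edge of the window.

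ERV29, the receptor gene for soluble secretory proteins, had the weakest promoter peak of the 16 and the one closest to the outer edge. Its fold was 1.38 (chromosome VII, 1061873 to 1062174), and its summit lay 445 bp upstream, inside the body of ZUO1, a gene of a ribosome-associated chaperone. The peak overlapped ZUO1 and not ERV29. ERV14, ERV25, ERV41, EMP24 and ERP1 had no summit. ERV41 and ERV46 encode partners in 1 complex, and the nearest summit to ERV41 was 6042 bp away.

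The COPI and Arf group had promoter summits at 3 of 9 genes and body summits at a further 2. RET2, the delta subunit gene of the coat, had a fold of 2.31 in a peak 973 bp wide (chromosome VI, 251617 to 252589), and a summit 41 bp past the start. The peak reached across the promoter region into RPN12, a proteasome gene, of which it covered 10.3%. SEC28, the epsilon subunit gene, had a fold of 2.06 (chromosome IX, 216186 to 216454), and its summit lay 351 bp upstream, between SEC28 and the divergent gene RCI37. COP1, the alpha subunit gene, had a fold of 1.73 (chromosome IV, 198351 to 198774) with the summit 285 bp upstream.

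SEC26, the beta subunit gene, had a body summit 178 bp before the gene end (chromosome IV, 937952 to 938241; fold 1.54). SEC21, SEC27 and RET3 had no summit, so 4 of the 7 coat subunit genes carried one in the promoter window or in the body. Beside this, 21.9% of all protein-coding genes had either kind (no interval made for the 7). The SEC26 body peak was lost with either stricter peak threshold. ARF2 had a weak peak over its body (chromosome IV, 216650 to 217041) that covered 71.8% of the gene, with a fold of 1.21 that ranked 1398 among the 1430 peaks and 2.25 as its −log10 q. A second ARF2 summit missed the promoter window narrowly, at 517 bp upstream, with a fold of 1.79. ARF1 had no summit. ARF1 and ARF2 both encode Arf GTPases, and their sequences were not compared here. How reads that map to more than 1 gene were treated is not given in the sources used here. Whether this bears on the ARF2 body peak was not tested, and that weak peak is uncertain.

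The O-mannosyltransferases divided evenly. PMT1, PMT2 and PMT4 had promoter summits, and PMT3, PMT5 and PMT6 did not. PMT1 had a fold of 2.22 and a width of 770 bp (chromosome IV, 286526 to 287295), PMT2 a fold of 2.05 (chromosome I, 108350 to 108672) and PMT4 a fold of 2.04 (chromosome X, 700862 to 701135). The subfamilies of these enzymes are named after Pmt1, Pmt2 and Pmt4. The 3 folds lay closer together than those of any other group with 3 promoter peaks.

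Their positions differed. The summits were 62 bp inside PMT1 and 17 bp inside PMT2, but 364 bp upstream of PMT4, where the summit fell 96 bp inside the divergent gene MGM101, which acts in mitochondrial DNA maintenance. The PMT4 peak overlapped MGM101 and not PMT4. With each summit counted only for the gene with the nearest start, PMT4 had no promoter summit. The PMT1 summit lay 426 bp upstream of RPN6, a proteasome gene. PMT1, PMT5 and SRP14 follow each other on chromosome IV with no coding gene between them. The PMT1 peak was the nearest for all 3, at 2788 bp from PMT5 and 5660 bp from SRP14, so of these 3 neighbours PMT1 alone had a summit in its window.

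Across the 16 promoter peaks the fold had a median of 2.06 and a range of 1.38 to 3.83. Beside this stood a median of 1.86 over all 659 promoter peaks, which the interval of the median (1.73 to 2.35) held. Of the 16, 10 had a fold of 2 or more (62.5%, interval 38.6 to 81.5), beside 39.9% of all promoter peaks. The interval of the share reached below that background. The median −log10 q was 39.2 (interval of the median 14.0 to 54.2), beside 22.3 over all promoter peaks, which the interval held. The median width was 373.5 bp (interval of the median 274 to 844), beside 343 bp, which the interval also held. At least 500 bp wide were 6 of 16 (no interval made), beside 25.5% of all promoter peaks. These 6 were SEC62, RET2, SRP54, ERV46, PMT1 and SEC31, and all 6 had a fold over 2. The 3 body peaks were weaker, with folds of 1.21, 1.32 and 1.54, beside a median of 1.53 over all 671 body peaks.

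**Figure D2:**
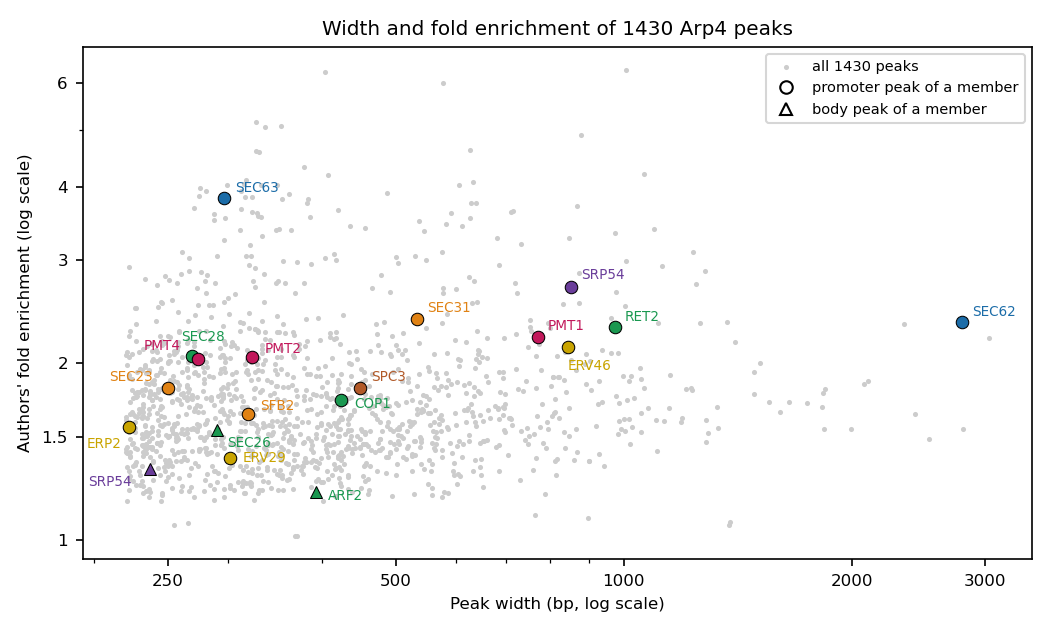
Width (bp, log scale) against the authors' fold enrichment (log scale) of all 1430 peaks (grey) with the promoter peaks (circles) and body peaks (triangles) of the 53 genes named and coloured by group. SEC63 is high and narrow, SEC62 is the widest of the named peaks, and the 3 triangles lie at a fold of 1.21 to 1.54.

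More of the promoter summits lay in the first bases of genes than upstream of them. In 9 of 16 genes (56.2%, interval 33.2 to 76.9) the promoter summit lay within the first 100 bp inside the start, beside 32.4% of all genes with a promoter summit. These were PMT2, SEC23, SEC62, SEC63, RET2, ERV46, SFB2, PMT1 and ERP2, at 17 to 93 bp. In SRP54, SPC3 and PMT4 the summit lay within the first 100 bp of the divergent partner instead. In all, 12 of 16 promoter peaks (75.0%, interval 50.5 to 89.8) had the summit in the first 100 bp of some protein-coding gene, beside 41.1% of all promoter peaks. Outside such a stretch were SEC31, COP1, SEC28 and ERV29. Transcription start sites were not used here, so positions refer to annotated coding starts.

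**Figure D3:**
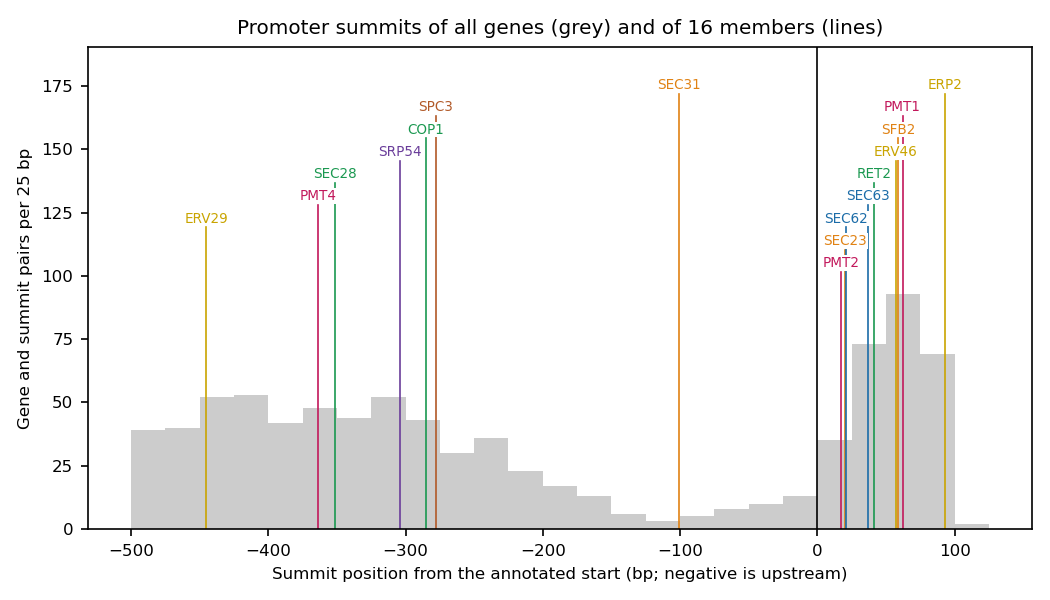
Position of promoter summits from the annotated start (bp, negative is upstream) for all genes, as gene and summit pairs per 25 bp (grey), with the 16 genes marked by lines in the colours of their groups. Of the 16 lines, 9 fall from 17 to 93 bp inside the start, 6 from 445 to 278 bp upstream, and SEC31 stands alone at 101 bp upstream.

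The genes with a promoter summit mostly faced a divergent neighbour, as did most genes of the annotation with such a summit. The nearest upstream gene was divergent for 13 of the 16 (81.2%, interval 57.0 to 93.4). Beside this stood 63.4% of all genes with a promoter summit, which the interval held. The share was 56.6% in the 53 genes and 51.0% in all genes. Among the 53 genes, 13 of 30 with a divergent neighbour had a promoter summit (43.3%, interval 27.4 to 60.8), beside 17.4% of all such genes. Of 23 with a tandem neighbour, 3 had one (13.0%, interval 4.54 to 32.1), beside 10.2% of all such genes. The 3 were PMT2, COP1 and ERV29. In 9 of the 16 (56.2%, interval 33.2 to 76.9) the same summit also lay in the promoter window of another gene, close to the 44.7% of all genes with a promoter summit. To which gene of such a pair the signal belongs cannot be told from 1 summit. None of the 19 peaks counted here overlapped a tRNA or other RNA gene of the annotation.

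The other genes of the secretory pathway, taken from 8 lists of 90 genes in all, were mixed. Promoter summits were present at 19 of 90 (21.1%, interval 14.0 to 30.6), beside 14.0% of all genes, and body summits in 2 (2.22%, interval 0.612 to 7.74), beside 10.1%. Of the single lists below, the interval of the promoter share lay above 14.0% in the oligosaccharyltransferase genes (18.9 to 73.3) and the GTPase genes (28.0 to 78.7) and held it in the others. Oligosaccharyltransferase genes, which act beside the translocon, had 4 of 9, with STT3, the catalytic subunit gene, highest at a fold of 3.43, then OST1 (2.09) and OST5 (1.92). Genes of Rab and Arf GTPases and their regulators had 6 of 11, led by the Arf GTPase-activating protein genes GCS1 (2.74) and GLO3 (2.05) and by YPT32 (2.03). Golgi mannosyltransferase genes had 4 of 13, led by KTR3 (1.86), MNN5 (1.77) and MNN1 (1.56), and ER folding genes 3 of 12, SIL1 (2.11), MPD2 (1.98) and KAR2 (1.66).

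For genes of vesicle tethering and fusion the shares were low, but their intervals held the 14.0% of all genes. SNARE genes had 1 promoter summit in 21 (interval 0.846 to 22.7), at YKT6 (1.68), with body summits in BET1 and SNC2, and TRAPP tether genes 1 in 10 (interval 1.79 to 40.4), at TRS120 (1.38). The 8 exocyst genes and the 6 genes of the GET pathway, which inserts tail-anchored proteins, had no promoter or body summit, with upper limits of 32.4% and 39.0% on the promoter share. In the ergosterol and mevalonate genes, whose later enzymes sit in the ER membrane, 6 of 23 had a promoter summit (interval 12.5 to 46.5), led by ERG6 (2.08), ERG3 (2.06) and ERG5 (1.77). All 6 of these summits lay upstream of the start, whereas 9 of the 16 above lay inside it. In the other secretory lists together 6 of 19 genes had it inside, beside 32.4% of all genes with a promoter summit. Differences between lists were not tested.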

How the data were processed

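The labels give 2 Arp4-3Flag and 2 untagged wild-type samples. The tools named, per the submitters' processing notes, are MACS2, SAMtools 1.4, BWA 0.7.15-r1140 and fastp 0.21.0. Not given in the sources used here are the settings, genome build, control and any pooling. The deposited list has no header and the layout that MACS2 writes. Per the file's layout, the authors deposited a fold enrichment (a linear ratio), −log10 p and −log10 q values and a score, which was not used. The lowest deposited −log10 q was 1.31.

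Peaks were placed on R64 genes, with strand read from systematic names. As a check of the build, 46 of 299 tRNA genes lay within 100 bp of a summit, and 2 to 10 did when summits were shifted by 200 to 1000 bp. Coordinates are counted from 1. No sequence was used here. The window assignment was checked on simulated summits at known offsets.

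The members and lists were chosen with earlier results of these data known. Signal peptidase and cargo receptors were set apart from the translocon and COPII coat. Every gene of the 53 with a summit is named, and up to 3 of highest fold in other lists. Counts and medians stand beside all genes or peaks, with no test. Alternatives changed thresholds, windows, overlap rules and members. Scripts ran in Python 3.11.15 (pandas 2.3.3, scipy 1.17.1, numpy 2.4.6, matplotlib 3.10.9).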

Additional observations from a re-analysis of the deposited data

How the results depend on the processing

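The promoter count of 16 stayed between 13 and 20 under 6 of the 8 alternatives run on it. These counts were 24.5% to 37.7% of the genes, beside 9.88% to 24.2% of all genes under the same rules. A count of 13 was out of 47 genes where the O-mannosyltransferases were left out. With the window from 250 bp upstream to the start it was 1 (1.89% of the 53 genes, beside 2.23% of all genes), and the count with either kind of summit was 4; this window leaves out the first bases of genes. Without genes whose summit also lies in another gene's window or body, 6 of 43 genes had a promoter summit (14.0%, no interval made). Beside this stood 7.03% of all genes under the same rule. Either kind was present at 8 of the 43 (18.6%, beside 13.4% of all genes). The body count of 3 was 0 when peaks under the median fold were left out, beside 3.43% of all genes. With a −log10 q of at least 10 it was also 0, beside 6.03%. It was 12 (22.6%) with the whole gene as body, beside 15.2% of all genes. With any peak base counted it was 12 as well, beside 17.6%, and the median body fold rose to 2.05. Both of these settings take in peaks with a summit at the start. The other alternatives left counts within 1.5 times and medians within their 95% interval for the median; no fold median among 3 body peaks has such an interval, so their range was used. No paired analysis was possible because the deposited list has no columns per sample, and leaving out a replicate was not possible for the same reason.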

Other observations

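The median length of the 16 genes with a promoter summit was 1816.5 bp (95% interval of the median 891 to 2454), beside 735 bp for the 37 without (582 to 1473). These intervals overlap, and the first holds the 1200 bp of all genes and the 1095 bp of all genes with a promoter summit. The shortest genes, SSS1, SBH1, SBH2, SPC1, ERV14 and SRP14 (243 to 441 bp), had no promoter summit, but neither did the longest, SEC16 (6588 bp), nor SEC26, SEC27, SEC21, SFB3 and SEC24 (2781 to 2922 bp). SEC31 (3822 bp) and COP1 (3606 bp) had one, as did the short genes SPC3 (555 bp) and ERP2 (648 bp). The gap to the nearest upstream gene had a median of 319.5 bp with and 345 bp without a promoter summit.

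Of the 35 genes with no summit, 10 (28.6%) had one within 2000 bp of their start, beside 26.3% of the 4686 genes of the annotation with none.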
